A study of Mus musculus with 6 samples.

Results

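The 2 control libraries, labelled Tdt Control, of a series of 6 RNA sequencing libraries of mouse muscle satellite cells are described. They were chosen by their genotype label alone, and the other 4 libraries (Jmjd3 KO and Utx KO, 2 each) are not used. The control cells came from adult C57BL/6 mice whose tibialis anterior and gastrocnemius muscles had been injected with cardiotoxin, a snake venom toxin that breaks down muscle fibres, and the cells were collected by fluorescence-activated cell sorting 30 h after the injury. The series title speaks of wild-type cells and the sample labels of Tdt Control. What Tdt stands for, which markers gated the sort, whether the controls carry a Cre or a reporter allele and whether the replicates came from separate animals are not given in the sources used here. With 1 group and 2 libraries no comparison is tested, so each value is given for both libraries, and the gap between them is the measure of error.

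Satellite cells are the stem cells of skeletal muscle and lie between the fibre membrane and the basal lamina. At rest they express the transcription factor Pax7 and do not divide. After injury they leave quiescence, express Myod1 and Myf5, enlarge and enter the cell cycle, and their progeny later express Myog, leave the cycle and fuse into new fibres.

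The libraries held 77675388 and 65893124 estimated reads in replicates 1 and 2. Values are TPM, the reads of a transcript divided by its length and scaled so that all transcripts of a library sum to 1000000. Where 2 values are joined by "and", the first is replicate 1 and the second replicate 2. Total RNA was sequenced, and short noncoding RNAs took much of the TPM because reads are divided by short lengths. Rn7s1, the RNA of the signal recognition particle, held 26.4 and 25.9% of the TPM but 7.52 and 6.89% of the reads, and Rn7sk, a nuclear RNA that restrains transcription elongation, held 5.13 and 5.09% of the TPM. Nuclear protein-coding genes held 34.4 and 36.1% of the TPM but 81.9 and 83.0% of the reads. A coding TPM given here can therefore be multiplied by 2.91 and 2.77 to read it with the coding transcripts alone scaled to that sum. A gene with no read in a library allows a level of up to 0.0386 and 0.0455 reads per 1000000 (3 reads of the library; counting error only). Of 21795 nuclear coding genes, 10284 reached 1 TPM in both libraries, here called detected, 4716 reached 10 TPM, 514 reached 100 TPM and 42 reached 1000 TPM, while 4925 had no reads in either. The detected genes had a median of 8.94 and 9.25 TPM.

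The most abundant coding transcripts were those of protein synthesis, the cytoskeleton and chromatin. Of the 30 nuclear coding genes with the highest mean TPM, 16 encode ribosomal proteins, 4 encode histones and 10 other proteins. These 30 genes held 13.5 and 13.5% of nuclear coding TPM. Eef1a1, which delivers tRNAs to the ribosome, was first with 3268 and 3499.7 TPM, followed by Actb, cytoplasmic beta-actin, with 2933 and 2994 TPM. Vim, the intermediate filament protein vimentin, had 1806 and 1805 TPM, and Lgals1, the secreted lectin galectin, 1767 and 1736 TPM. Hspa8, the constitutive chaperone of the cytosol, had 1667 and 1732 TPM, Ppia, a prolyl isomerase, 1656 and 1704 TPM and the glycolytic enzyme gene Gapdh 1609 and 1611 TPM. Tpt1, a growth-associated tumour protein, had 1194 and 1407 TPM. Actg1, the other cytoplasmic actin, had 1279.9 and 1146 TPM, and the tubulin gene Tuba1b 1186 and 1176 TPM. All ribosomal protein genes together, 87 symbols, held 20.2 and 20.8% of nuclear coding TPM.

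**Figure D1:**
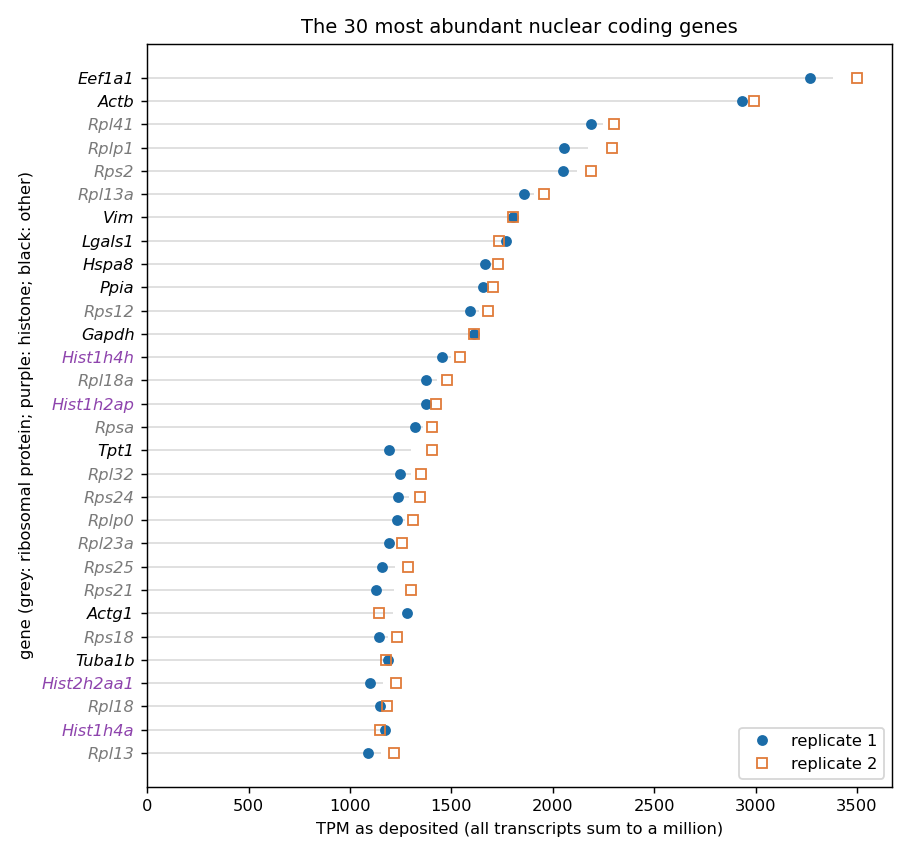
TPM (linear axis) of the 30 nuclear coding genes with the highest mean in the 2 control libraries, filled circles for replicate 1 and open squares for replicate 2, with grey lines to the mean. Eef1a1 leads at 3268 and 3499.7 TPM, 16 of the names are ribosomal protein genes (grey) and 4 are histone genes (purple).

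Histone transcripts of the clustered genes, which are made mainly in S phase and mostly carry no poly(A) tail, were prominent. The 67 genes of the clusters held 8.52 and 8.43% of nuclear coding TPM, of which H4 genes held 2.66 and 2.605%, H2A genes 1.96 and 1.98%, H2B genes 1.96% in both libraries, H3 genes 1.36 and 1.34% and linker H1 genes 0.576 and 0.554%. Their coding sequences are nearly identical, so a value of a single histone gene, such as Hist1h4h with 1453 and 1543 TPM, is uncertain and the family sums are the firmer figure.

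The defining transcription factors of the lineage were all present. Myod1, the factor of activated myoblasts on chromosome 7 (GRCm38, 46376474 to 46379099, plus strand), stood at 202 and 216 TPM. Myf5, its relative that is already transcribed at rest, on chromosome 10 (107482908 to 107486134, minus strand), stood at 35.6 and 38.4 TPM. Pax7, on chromosome 4 (139737062 to 139833528, minus strand), stood at 17.0 and 17.6 TPM, backed by 10551 and 8929 estimated reads. Myog, the factor of committed differentiation on chromosome 1 (134289989 to 134292548, plus strand), stood at 3.66 and 2.91 TPM. Per length, Myod1 transcripts were 11.9 and 12.3 times as abundant as those of Pax7, 5.67 and 5.62 times those of Myf5 and 55.1 and 74.4 times those of Myog. The ratios to Pax7 and Myf5 were close in the libraries, and that to Myog was less even, with 597 and 387 reads of Myog.

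Of 25 markers of the satellite lineage, 24 were detected, 19 of them at 10 TPM or more in both libraries. Surface and matrix receptors led the list: Sdc4, a heparan sulfate proteoglycan, had 303 and 334 TPM, Itgb1, the common integrin beta chain, 137 and 145 TPM, and Dag1, dystroglycan, 115 and 131 TPM. Des, the muscle intermediate filament desmin, had 221 and 238 TPM. Itga7, the laminin-binding integrin by which satellite cells are often sorted, had 96.5 and 91.2 TPM. Cd34 had 79.2 and 86.9 TPM, Met, the receptor of hepatocyte growth factor, 80.4 and 78.1 TPM, and the adhesion gene Vcam1 77.9 and 79.9 TPM. Lower on the list were Cdh15, M-cadherin, with 27.0 and 30.9 TPM, and the receptor gene Megf10 with 6.24 and 6.57 TPM. Chrdl2, a BMP antagonist, was the member not detected in both, with 0.937 and 1.95 TPM.

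Genes tied to quiescence were still transcribed, with a lower list median than the genes tied to activation. The 30 quiescence-associated genes had a median of 11.7 and 12.5 TPM, beside 8.94 and 9.25 TPM over all detected coding genes, and none of them reached 100 TPM in both libraries. Besides Cd34, the highest were the collagen gene Col5a2 with 49.6 and 52.6 TPM, the antiproliferative gene Btg2 with 36.0 and 42.6 TPM and Pdk4, which restrains pyruvate oxidation, with 32.1 and 37.5 TPM. Notch2 had 24.5 and 22.9 TPM and Spry1, an inhibitor of growth factor signalling that marks resting satellite cells, 13.6 and 16.6 TPM. Calcr, the calcitonin receptor that is characteristic of resting satellite cells, stood at 2.00 and 2.05 TPM. The list was written from general knowledge, but with earlier results of these data known. No resting sample is used here, so these levels say nothing of how far the genes had moved from rest. The quiescence and activation lists also hold different genes, so the gap between their medians is no measure of cell state.

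The 30 activation-associated genes had a median of 44.2 and 47.2 TPM, and 10 of them reached 100 TPM. Npm1 and Ncl, nucleolar proteins of ribosome assembly, had 729 and 756 TPM and 543 and 527 TPM. Odc1, the first enzyme of polyamine synthesis, had 507 and 538 TPM, and Hmga1, a chromatin protein of growing cells, 353 and 347 TPM. The G1 kinase gene Cdk4 stood at 292 and 294 TPM and its cyclin Ccnd1 at 235 and 228 TPM. Tnc, the matrix protein tenascin-C, had 191 and 189.8 TPM, Tnfrsf12a, the receptor of the cytokine TWEAK, 178 and 185 TPM, and Myc 67.1 and 71.0 TPM. A few members were almost silent: the growth factor gene Hgf stood at 0.678 and 0.765 TPM, Igf2bp1, which is typical of fetal cells, at 0.00539 and 0.00130 TPM, and Lin28b had no reads in either library.

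Immediate early genes, which respond to stimuli within minutes, were all detected (33 of 33), with a median of 36.0 and 39.5 TPM. The AP-1 genes Junb, Fos and Jun had 208 and 236 TPM, 191 and 210.5 TPM and 137 and 149 TPM. Ccn1, a matricellular protein, had 139 and 159 TPM, Klf6 96.9 and 96.5 TPM, Fosb 81.3 and 78.8 TPM and Egr1 71.0 and 79.0 TPM. At the low end were Nr4a3 with 2.71 and 2.51 TPM and the phosphatase gene Dusp2 with 1.56 and 1.61 TPM.

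Among 41 regulators of the myogenic programme, 32 were detected. The Id proteins, which hold basic helix-loop-helix factors such as MyoD inactive, were next to Myod1: Id1 had 149 and 148 TPM, Id2 66.4 and 73.0 TPM and Id3 51.8 and 57.0 TPM. The E proteins that pair with MyoD were lower, Tcf3 at 28.5 and 28.7 TPM, Tcf12 at 25.6 and 23.4 TPM and Tcf4 at 18.3 and 16.0 TPM. Srf, which drives actin genes, had 38.7 and 38.5 TPM. Pax3, the paralogue of Pax7, stood at only 0.198 and 0.274 TPM, Twist1, a mesenchymal factor, at 0.235 and 0.179 TPM, and Pitx1, a hindlimb factor, at 0.0181 and 0.0206 TPM.

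Of the 38 genes on the list of differentiation and fusion, 30 were detected, with a median of 5.06 and 6.40 TPM over the list. The 8 at 100 TPM or more were Acta1, Ckm, Mylpf, Myl1, Tnnc2, Des, Tnnt3 and Tnni2, genes that adult fibres also express. The genes of newly forming fibres were lower. Of 10 genes of developmental myosin, fusion and the fetal contractile apparatus (a list made after the values were seen), 4 were detected and none reached 10 TPM. Of all nuclear coding genes, 47.2% were detected and 21.6% reached 10 TPM, so the detected count lies near that of all genes. Myh3, embryonic myosin, stood at 0.0331 and 0.0512 TPM, Myh8, neonatal myosin, at 0.0256 and 0.0187 TPM, and the membrane fusion proteins Mymk and Mymx at 0.145 and 0.204 TPM and 0.0588 and 0.0226 TPM. Chrnd, an acetylcholine receptor subunit, was the highest with 3.98 and 4.26 TPM, followed by Myog, and Myl4 and Tnnt2 were also detected.

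Transcripts of adult fibres were abundant beside them. Of 25 genes of the mature fibre, 24 were detected, 7 at 100 TPM or more. Ckm, muscle creatine kinase, had 340.3 and 381 TPM. The fast troponin genes Tnnc2, Tnnt3 and Tnni2 had 224 and 264 TPM, 204 and 231 TPM and 150.4 and 182 TPM, the calcium pump gene Atp2a1 201 and 221 TPM and the calcium buffer parvalbumin, Pvalb, 132 and 139 TPM. The seventh was Actn3, an actinin of the fast fibre's Z-disc, with 106 and 102 TPM. From the list of differentiation and fusion, Acta1, skeletal alpha-actin, had 431 and 485 TPM and Mylpf, the fast regulatory light chain, 283 and 294 TPM. Myh4, the myosin of fast glycolytic fibres, stood at 54.6 and 50.8 TPM. Which cells or fibre remnants this RNA came from was not tested. In bulk RNA, fewer cells of a type and less RNA per cell cannot be told apart, here and in every level below.

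**Figure D2:**
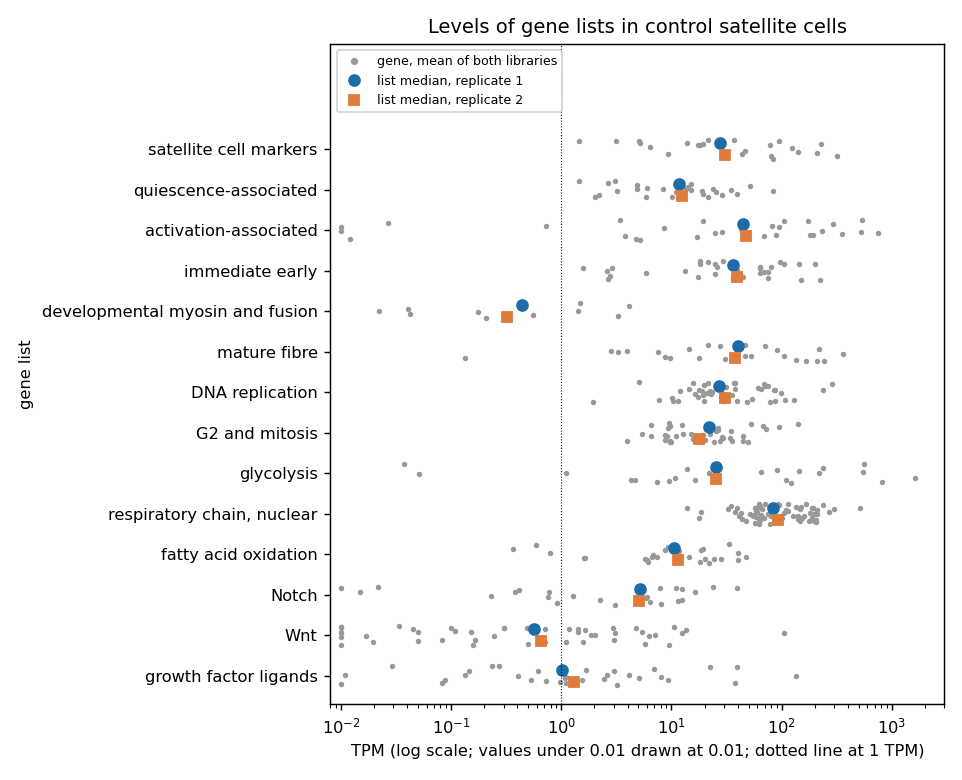
TPM on a log axis of the members of 14 gene lists, with each grey point the mean of both control libraries for a gene, a blue circle the list median in replicate 1 and an orange square that in replicate 2. The activation-associated median (44.2 and 47.2 TPM) lies right of the quiescence-associated one (11.7 and 12.5 TPM), and the developmental myosin and fusion median is under 1 TPM in both libraries.

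Genes of S phase and of mitosis were transcribed throughout. All 48 DNA replication genes and all 42 genes of G2 and mitosis were detected, with medians of 26.9 and 30.3 TPM and 21.8 and 17.9 TPM. The ratio of the replication median to the mitosis median was 1.24 in replicate 1 and 1.70 in replicate 2. Pcna, the sliding clamp of DNA polymerases, had 266 and 309 TPM, Rrm2, the ribonucleotide reductase subunit that peaks in S phase, 241 and 237 TPM, and the replicative helicase subunits Mcm7 and Mcm3 124 and 135 TPM and 99.3 and 113 TPM. Dut, which keeps uracil out of DNA, had 95.7 and 102 TPM and Uhrf1, which guides maintenance of DNA methylation, 83.8 and 90.2 TPM. Of the mitotic genes, the kinase gene Cdk1 had 152 and 131 TPM, Top2a, the topoisomerase that separates sister chromatids, 99.9 and 88.7 TPM, Ube2c, which acts with the anaphase-promoting complex, 86.0 and 58.7 TPM, and Ccnb1, mitotic cyclin B, 51.7 and 37.1 TPM. Mki67, the proliferation marker, had 39.2 and 32.3 TPM.

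In G1, D-type cyclins were uneven. Ccnd1 stood at 235 and 228 TPM and Ccnd3 at 63.2 and 69.1 TPM, but Ccnd2 at only 1.84 and 1.85 TPM. Cdk4 exceeded its relative Cdk6, which had 43.8 and 44.1 TPM. Of the inhibitors, Cdkn1a, p21, had 72.9 and 75.1 TPM, Cdkn2c 18.4 and 19.2 TPM, Cdkn1c, p57, 2.14 and 2.29 TPM and Cdkn2b 0.400 and 0.220 TPM. Per length, Cdk4 transcripts were 29.4 and 28.3 times those of Cdkn1b, p27, and Cdkn1a transcripts 7.33 and 7.22 times those of Cdkn1b. Ccne2 and Ccne1, the cyclins of S phase entry, had 23.9 and 27.8 TPM and 13.3 and 15.3 TPM.

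Promoters of these sets are printed because the mitosis genes varied together between the libraries, as described further on, and the replication genes serve beside them. RefSeq promoter entries of GRCm38.p6, 250 bases before to 50 after the start, were found for 38 of the 48 replication genes, 35 of the 42 mitosis genes and 16464 nuclear coding genes in all. Both strands were searched. An E2F-type motif (TTTGGCGC or TTTCGCGC, which can overlap each other in opposite directions) stood in 10 of the 38 replication promoters (26.3%) and 1 of the 35 mitosis promoters (2.86%), against 1.08% of all. The cell cycle homology region, searched as TTTGAA, stood in 25 of the 35 mitosis promoters (71.4%) and 4 of the 38 replication promoters (10.5%), against 15.6% of all. CCAAT stood in 26 and 25 of them, against 38.7% of all. A match describes the letters in the window and is not shown to be bound.

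The first 3 sequences are the 150 bases before the start of the 3 most abundant replication genes that hold an E2F-type match there, 5′ to 3′, with the match on either strand in capitals. They lie, on GRCm38.p6, at chr8:75109359-75109508, plus strand (Mcm5), chr1:128359706-128359855, minus strand (Mcm6) and chr5:151651209-151651358, minus strand (Rfc3, a subunit of the clamp loader). In Mcm6 a TTTGGCGC match overlaps a TTTCGCGC match on the other strand and a further TTTGGCGC stands nearer the start.
Mcm5: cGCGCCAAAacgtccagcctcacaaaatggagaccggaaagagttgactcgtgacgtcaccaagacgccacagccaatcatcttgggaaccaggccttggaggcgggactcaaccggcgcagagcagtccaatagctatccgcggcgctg
Mcm6: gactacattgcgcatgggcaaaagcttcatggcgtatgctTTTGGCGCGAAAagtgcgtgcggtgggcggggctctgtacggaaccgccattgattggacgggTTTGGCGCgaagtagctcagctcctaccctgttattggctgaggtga
Rfc3: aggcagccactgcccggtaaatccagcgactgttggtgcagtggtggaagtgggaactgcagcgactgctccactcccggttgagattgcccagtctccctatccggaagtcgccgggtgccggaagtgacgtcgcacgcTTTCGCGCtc

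The next 3 are the same stretch of the 3 most abundant mitosis genes that hold TTTGAA there, with every TTTGAA and every CCAAT of either strand in capitals. They lie at chr10:69352913-69353062, minus strand (Cdk1), chr11:99024190-99024339, minus strand (Top2a) and chr2:164769779-164769928, plus strand (Ube2c). In Cdk1 the TTTGAA matches begin 71 and 15 bases before the start, in Top2a the match begins 23 bases before it and in Ube2c 29 bases before it. All 3 also hold CCAAT, as ATTGG on the printed strand in Cdk1 and Ube2c and in both directions in Top2a.
Cdk1: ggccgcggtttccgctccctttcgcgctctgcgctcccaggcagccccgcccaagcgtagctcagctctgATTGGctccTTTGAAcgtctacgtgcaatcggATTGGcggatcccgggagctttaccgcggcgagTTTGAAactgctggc
Top2a: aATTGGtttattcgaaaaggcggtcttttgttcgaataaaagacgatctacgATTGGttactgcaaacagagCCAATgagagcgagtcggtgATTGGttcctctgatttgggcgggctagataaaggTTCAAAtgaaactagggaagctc
Ube2c: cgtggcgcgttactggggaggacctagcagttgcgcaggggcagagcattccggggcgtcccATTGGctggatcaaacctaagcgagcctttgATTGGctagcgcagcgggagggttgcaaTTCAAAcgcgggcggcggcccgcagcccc

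The libraries were rich in the transcripts of ribosome making, translation and protein folding. All 41 ribosome biogenesis genes reached 10 TPM, with a median of 42.8 and 48.5 TPM. Behind Npm1 and Ncl came Nop58 with 239 and 268 TPM and fibrillarin, Fbl, with 155 and 164 TPM, both of the particles that modify ribosomal RNA. Translation factors had a median of 135 and 137 TPM, and 17 of 24 reached 100 TPM. Eef2, which moves the ribosome along, had 859 and 860.0 TPM, the helicase gene Eif4a1 751 and 780.2 TPM and Eif5a 609 and 614 TPM. Eef1a2, the form of Eef1a1 that replaces it in mature muscle, had 21.2 and 24.6 TPM.

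Chaperone genes had a median of 125 and 139 TPM, all 30 detected. Hsp90ab1 had 610.5 and 644 TPM, Hspd1 of the mitochondrial matrix 422 and 426 TPM, Hspa5 of the endoplasmic reticulum 333 and 340.5 TPM and Tcp1 of the cytosolic chaperonin 331 and 318 TPM. The inducible Hspa1a had 51.0 and 40.7 TPM, and Ddit3, a gene of the unfolded protein response, only 1.89 and 1.76 TPM. For oxidative stress and metals, the ferritin gene Fth1 had 469 and 501 TPM, the metallothionein gene Mt2 405 and 514 TPM, thioredoxin, Txn1, 348 and 355 TPM and superoxide dismutase, Sod1, 245 and 273 TPM. Hmox1, haem oxygenase, stood at 12.3 and 10.5 TPM and Nqo1 at 1.74 and 2.01 TPM.

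Cytoskeletal genes had a median of 165 TPM in both libraries, and 23 of 37 reached 100 TPM. Besides the actins, tubulins and vimentin, the actin-binding genes Pfn1, Tmsb10, Cfl1 and Tmsb4x had 966 and 973 TPM, 912 and 919 TPM, 592 and 606 TPM and 532 and 599 TPM. Nestin, Nes, an intermediate filament protein of muscle precursors, had 35.4 and 34.6 TPM. Cnn1, a smooth muscle calponin, stood at 0.0381 and 0.0433 TPM.

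Glycolysis was carried by a few abundant enzymes. Of 25 genes, 23 were detected and 9 reached 100 TPM. After Gapdh came Aldoa with 783 and 853 TPM, Pkm with 547 and 550.2 TPM and Ldha, which makes lactate, with 539 and 580.2 TPM. The transport and entry steps were lower: Slc2a1, the general glucose transporter, had 14.4 and 13.3 TPM, hexokinases Hk1 and Hk2 25.8 and 24.9 TPM and 25.5 and 25.3 TPM, and Slc2a4, the insulin-responsive transporter of fibres, 1.02 and 1.18 TPM. Slc16a1, which carries lactate, had 61.8 and 67.2 TPM. The neuronal forms Eno2 and Aldoc stood at 0.0456 and 0.0564 TPM and 0.0554 and 0.0191 TPM. Symbols carried by more than 1 gene identifier, Aldoa among them, were read from the identifier with the most reads.

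Pkm is spliced to 1 of 2 mutually exclusive exons, of which the downstream gives the form of growing cells and the upstream the form of mature muscle. The transcript with the downstream exon (chromosome 9, 59675568 to 59675734, GRCm38, plus strand) held 86.6 and 86.7% of Pkm TPM, or 473 and 477 TPM. The transcript with the upstream exon (59675029 to 59675195) held 11.6% in both libraries, or 63.6 and 64.0 TPM. Both shares differed by less than 1 percentage point between the libraries.

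All 75 nuclear genes of the respiratory chain reached 10 TPM, with a median of 83.0 and 92.3 TPM, and the highest were the ATP synthase genes Atp5b with 490.4 and 529.8 TPM and Atp5a1 with 292 and 309 TPM, and the cytochrome oxidase gene Cox8a with 259 and 282 TPM. The 13 mitochondrial protein genes had a median of 621 and 764 TPM. A pair of them differed in opposite directions between the libraries: mt-Co2 stood at 619 and 1563 TPM and mt-Atp6 at 2057 and 1165 TPM, whereas mt-Nd1 stood at 1674 and 1878 TPM and mt-Cytb at 1459 and 1582 TPM. Citric acid cycle genes had a median of 50.8 and 54.4 TPM, led by Mdh2, mitochondrial malate dehydrogenase, with 185 and 196 TPM. Mdh1, the cytosolic form, was listed at 0.0873 and 0.195 TPM, although both of its annotated coding transcripts are in the tables, and whether this value reflects its expression was not tested.

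Fatty acid oxidation was lower, with a median of 10.4 and 11.5 TPM and 26 of 29 genes detected. Hadha, of the trifunctional protein, had 44.4 and 49.6 TPM, and Cpt1a, which admits fatty acids into mitochondria, 21.1 and 19.2 TPM. Its muscle form Cpt1b had 1.58 and 1.67 TPM, and Ppargc1a, the coactivator of oxidative metabolism, 0.558 and 0.627 TPM. Cholesterol synthesis genes had a median of 11.5 and 13.8 TPM, with their regulator Srebf2 at 39.9 and 42.2 TPM. Serine, one-carbon and nucleotide synthesis genes had a median of 48.96 and 51.0 TPM: Impdh2, of guanine nucleotide synthesis, had 183 and 193 TPM, Paics, of purine synthesis, 107 and 119.5 TPM, and Phgdh, the first enzyme of serine synthesis, 105 and 101 TPM. In the pyruvate dehydrogenase list, Pdha1 had 51.2 and 52.9 TPM and Pdk1 2.45 and 3.06 TPM. Of 19 hypoxia response genes, 17 were detected, but Car9, a sensitive target, stood at 0.0653 and 0.0232 TPM.

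Toward the niche, adhesion genes led. Of 36 integrin and niche adhesion genes, 25 were detected. Cd44, the hyaluronan receptor, had 330.2 and 326 TPM, the tetraspanin gene Cd82 171 and 181 TPM and the glypican gene Gpc1 97.6 and 92.6 TPM. Transcripts of Itga7 were 13.2 and 12.9 times those of Itga6, another laminin receptor chain. Of integrin chains of leukocytes and platelets on this list, Itga4 stood at 0.267 and 0.309 TPM and Itgb3 at 0.176 and 0.182 TPM. Itgam, counted with the macrophage and monocyte markers below, had 3.78 and 4.45 TPM.

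Matrix genes were also read, 39 of 43 detected, and which cells made these transcripts was not tested. After Tnc came Sparc, a collagen-binding glycoprotein, with 169 and 191 TPM, Spp1, osteopontin, with 120.2 and 115 TPM, Col3a1 with 83.0 and 80.4 TPM and Thbs1, thrombospondin, with 63.0 and 64.6 TPM. Among proteases and their inhibitors, Timp1, a metalloprotease inhibitor, had 114 and 121 TPM, and Plau, urokinase, with its receptor Plaur, 83.8 and 92.5 TPM and 47.3 and 49.7 TPM. Mmp13 was near the floor at 0.00406 and 0.0143 TPM.

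Of 27 genes of the Notch pathway, which keeps satellite cells undifferentiated, 18 were detected. The receptors Notch2, Notch1 and Notch3 had 24.5 and 22.9 TPM, 12.9 and 11.9 TPM and 10.7 and 12.4 TPM, and their nuclear partner Rbpj 38.6 and 39.4 TPM. Ligands were lower, Jag2 at 5.78 and 6.95 TPM and Dll1 at 5.83 and 4.84 TPM, and Dll4, an endothelial ligand, at 0.748 and 0.759 TPM. The target genes Hes1, Heyl and Hey1 had 10.6 and 11.4 TPM, 5.15 and 6.92 TPM and 5.58 and 6.17 TPM, while Hey2 stood at 0.243 and 0.217 TPM.

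A smaller share of the Wnt list was detected than of the Notch list. Of 46 Wnt genes, 21 were detected, close to the share of all nuclear coding genes (47.2%). Under 0.1 TPM in both libraries were 13. Ctnnb1, beta-catenin, which also serves cell adhesion, had 103 and 107 TPM, the co-receptor Lrp6 12.5 and 14.5 TPM and the receptor Fzd1 10.3 and 10.8 TPM. Wnt11 was at 2.12 and 1.59 TPM. Wnt3a, Rspo2 and the inhibitor Dkk1 had no reads, and Wnt7a stood at 0.00858 and 0 TPM.

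Growth factor ligands were mostly low and a few receptors high. Of 32 ligands, 16 were detected, against 47.2% of all nuclear coding genes. They were led by Csf1, the macrophage growth factor, with 142 and 131 TPM. Pdgfa had 39.4 and 35.9 TPM, Vegfa 39.01 and 38.9 TPM and Hbegf, a ligand of the EGF receptor, 21.6 and 23.1 TPM. Of 30 receptors, 17 were detected: Axl had 165 and 160.3 TPM, Epha2 33.9 and 33.3 TPM, Fgfr1 27.7 and 28.0 TPM, Egfr 25.3 and 26.0 TPM and Fgfr4, the FGF receptor of the muscle lineage, 17.5 and 18.9 TPM. Transcripts of Met were 119 and 102 times those of its ligand Hgf.

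In the TGF-beta and BMP list, 33 of 42 genes were detected. The signal transducers Smad2, Smad5 and Smad4 had 23.9 and 24.9 TPM, 16.7 and 18.4 TPM and 15.8 and 15.1 TPM, and Ltbp1, which stores latent TGF-beta in the matrix, 37.5 and 28.9 TPM. Mstn, myostatin, stood at 0.364 and 0.306 TPM, and the BMP antagonist Grem1 had no reads.

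Inflammatory signals were present. Of the cytokine list, 34 of 40 were detected, with Socs3, a feedback inhibitor of cytokine signalling, at 85.0 and 106 TPM, Il6st, the shared receptor of the interleukin-6 family, at 38.3 and 34.3 TPM, and Il1b at 37.6 and 47.0 TPM. Il6 had 3.92 and 6.40 TPM, and Il13 no reads. Among chemokines, 19 of 24 were detected: the neutrophil attractants Cxcl1 and Cxcl2 had 125 and 135 TPM and 56.1 and 63.8 TPM, Cxcl12 36.6 and 43.1 TPM with its receptors Cxcr4 and Ackr3 at 46.1 and 46.2 TPM and 16.4 TPM in both libraries, and the monocyte attractants Ccl2 and Ccl7 24.4 and 26.9 TPM and 18.1 and 22.4 TPM. Il1b is also a product of myeloid cells, whose markers are given below, and their part in its level was not tested.

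Markers of other cell types were present at uneven levels. Of the leukocyte lists, Cd14, Lyz2, S100a8 and S100a9 each exceeded Pax7 (17.0 and 17.6 TPM) in both libraries. The other members were lower than Pax7 or close to it. The 20 macrophage and monocyte markers summed to 129 and 159.8 TPM, with 17 detected. Cd14 had 32.5 and 37.2 TPM, Lyz2, lysozyme, 28.3 and 39.3 TPM and Tyrobp 15.8 and 18.4 TPM, while Adgre1, F4/80, stood at 1.09 and 1.39 TPM and Csf1r at 2.10 and 2.47 TPM. The 18 neutrophil markers summed to 115 and 141 TPM with 10 detected, a share near the 47.2% of all nuclear coding genes. S100a8 and S100a9, the main cytosolic proteins of neutrophils, had 39.4 and 52.9 TPM and 34.4 and 39.3 TPM, and the receptor gene Csf3r 2.79 and 3.17 TPM. Ly6g stood at 0 and 0.0288 TPM, and the granule protease gene Elane had no reads. Lymphoid markers summed to 0.490 and 0.627 TPM, none of 18 detected, and mast cell markers to 0.716 and 1.38 TPM, none of 8 detected.

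Stromal lists were led by genes that also stand in the satellite, matrix or immediate early lists above. The 20 fibro-adipogenic markers summed to 199.7 and 220.1 TPM, of which Col3a1 and Gsn, gelsolin, were the highest. Pdgfra, their defining receptor, had 1.88 and 2.22 TPM, the decorin gene Dcn 17.2 and 23.3 TPM and Pi16 0.573 and 0.542 TPM. The 12 mural markers summed to 322 and 338 TPM, but to 19.02 and 21.5 TPM without Des and Acta2, and Pdgfrb stood at 1.11 and 0.990 TPM and Myh11 at 0.275 and 0.259 TPM. The 12 tenocyte markers summed to 275 and 287 TPM, but to 12.3 and 17.9 TPM without Tnc and Egr1. Scx, the tendon factor, had 7.73 and 9.30 TPM and the tendon membrane protein gene Tnmd 0.0239 and 0.0647 TPM. The part of these cells in the matrix and cytokine values above was not tested.

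Endothelial markers summed to 35.03 and 40.8 TPM, with 7 of 20 detected, against 47.2% of all nuclear coding genes. Pecam1, Cdh5 and Kdr stood at 2.75 and 3.01 TPM, 3.001 and 3.41 TPM and 0.521 and 0.708 TPM. Schwann cell markers summed to 24.7 and 28.8 TPM, nearly all of it Pmp22, and Sox10 stood at 0.0214 and 0.0375 TPM. The 10 adipocyte markers summed to 60.3 and 63.0 TPM, mostly Car3, which fibres also make, while Adipoq had no reads. Erythroid markers summed to 42.1 and 53.8 TPM, mostly the globin genes Hbb-bs with 20.1 and 27.2 TPM and Hba-a2 with 16.1 and 19.6 TPM. The satellite list summed to 1609.9 and 1712 TPM, of which Des, also in the mural and differentiation lists, held 221 and 238 TPM. The mature fibre list, led by Ckm with 340.3 and 381 TPM, is not among the lists summed here. Its members together held more TPM than the satellite list in both libraries.

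**Figure D3:**
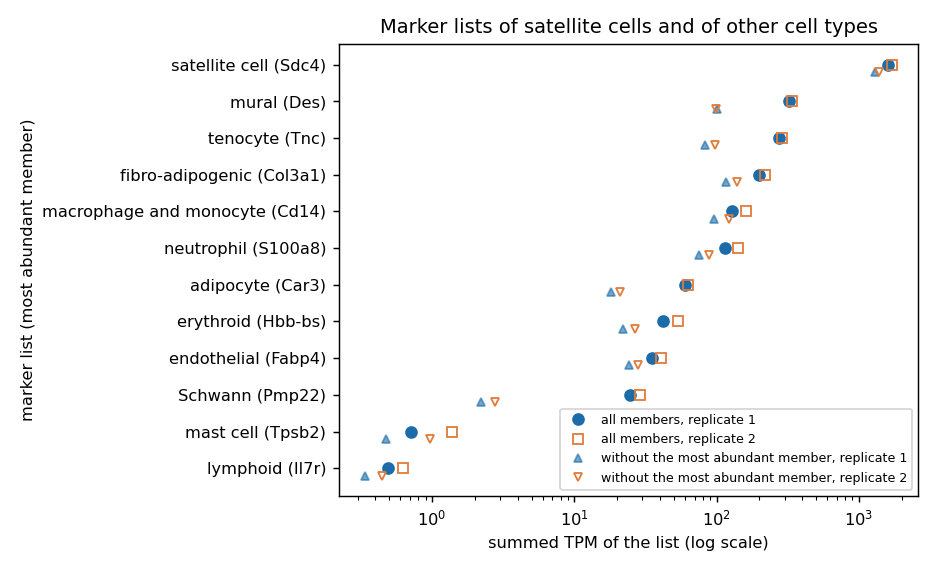
Summed TPM (log axis) of 12 marker lists in replicate 1 (blue) and replicate 2 (orange), with triangles for the sum without the most abundant member, which is named in brackets. Among these 12 lists the satellite list is highest at 1609.9 and 1712 TPM. The mature fibre list is not included, and its members together held more TPM than the satellite list in both libraries. The lymphoid list is lowest at 0.490 and 0.627 TPM.

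Both libraries held transcripts of both sex chromosomes' marker genes. Xist, the RNA of the inactive X, had 5.14 and 3.41 TPM, and Ddx3y on the Y 6.03 and 6.48 TPM. The labels name no sex for the animals, and whether animals of both sexes were pooled was not tested. The genes deleted in the other groups of the series were read in these controls, Kdm6a at 8.99 and 8.86 TPM and Kdm6b at 3.40 and 2.80 TPM. Of long noncoding RNAs, the imprinted H19 had 65.6 and 68.0 TPM and the nuclear Malat1 102 and 74.8 TPM.

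The 2 libraries were close. Over the 10284 detected coding genes, which are not independent replicates, log2 TPM correlated with a Pearson r of 0.996, given as a description. edgeR estimated a common biological coefficient of variation of 0.0757 over 16126 genes. The gaps were larger than counting error alone gives. Over 12252 coding genes with at least 100 reads, the chi-square of reads against a split by library size averaged 16.9 per gene. Of 4846 nuclear coding genes with a mean of at least 10 TPM, 4691 (96.8%) differed by less than 1.25-fold. Of them, 4 (0.0825%) differed 2-fold or more, all higher in replicate 2. In reads per 1000000 (CPM) scaled with edgeR's TMM factors the count was 2, Rps27 and Hist1h2br. It was also 2 with DESeq2 size factors, and 19 in TPM at a minimum mean of 1 TPM. The 4 were Hist1h2br (19.2 and 60.9 TPM), Rps27 (385 and 893 TPM), Smim10l1 (16.6 and 36.8 TPM) and Myl2 (10.7 and 22.6 TPM). Mitochondrial genes are outside this count, and mt-Co2 stood at 619 and 1563 TPM. Rps27 has a near-identical copy, Rps27rt, that went the other way (867 and 548 TPM), and Hist1h2br is a histone, so the split of reads makes both uncertain.

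Replicate 1 was higher in genes of G2 and mitosis. Of the 42, 41 were lower in replicate 2, against 31.8% of the 10403 coding genes with a mean of at least 1 TPM, and 21 were lower by 1.25-fold or more, against 1.92%. Their median log2 ratio of replicate 2 to replicate 1 was -0.32, and that of all coding genes 0.06. Cenpa, the centromeric histone, stood at 33.7 and 19.6 TPM, Kif23, a motor of cell division, at 36.0 and 23.0 TPM, Cdc20, the activator of the anaphase-promoting complex, at 40.5 and 27.2 TPM and the mitotic kinase gene Plk1 at 33.3 and 23.8 TPM. DNA replication genes did not share this: none of 48 differed by 1.25-fold in either direction, and their median log2 ratio was 0.10.

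Replicate 2 was higher in genes of slow and oxidative fibres. Mb, myoglobin, stood at 48.2 and 91.5 TPM, Csrp3, a Z-disc protein, at 52.8 and 86.2 TPM, and Myl2, the slow regulatory light chain, at 10.7 and 22.6 TPM. In a list of 13 such genes, written after the largest differences had been seen, all 12 with a mean of at least 1 TPM were higher by 1.25-fold or more, against 4.60% of all coding genes. The median log2 ratio was 0.87 for them and 0.07 for 13 genes of fast fibres, 1 of which, Myh1 with 16.7 and 26.3 TPM, passed 1.25-fold. As the slow list was chosen partly on these values, its count is a description of which genes differed.

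Markers of several other cell types were mostly higher in replicate 2. All 17 macrophage and monocyte markers with a mean of at least 1 TPM were higher, against 68.2% of coding genes, 8 of them by 1.25-fold or more, with a median log2 ratio of 0.32. Of 10 neutrophil markers 9 were higher, with a median of 0.18, and Hdc was lower with 3.86 and 3.63 TPM. The median was 0.36 for erythroid markers (4 of 4 higher), 0.18 for endothelial (8 of 8), 0.19 for fibro-adipogenic (12 of 15), 0.21 for tenocyte (3 of 4), 0.19 for adipocyte (2 of 3) and 0.11 for mural markers (3 of 5). The tenocyte, adipocyte and mural counts are small and lie near the 68.2% of all coding genes. Pmp22, the single Schwann marker at that level, had 0.21. With TMM-scaled CPM each of these medians stayed above 0, with 6 of 8 endothelial, 3 of 4 erythroid and 8 of 10 neutrophil markers higher. On that scale the median of all coding genes was 0.0034. The 68.2% is a share in TPM, so it is no background for these scaled counts. Satellite cell markers had a median log2 ratio of 0.08, and activation-associated genes of 0.08, against 0.06 for all coding genes with a mean of at least 1 TPM. Nuclear respiratory chain genes had 0.14 and cholesterol synthesis genes 0.24. With 1 library on each side these differences have no replicate check.

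**Figure D4:**
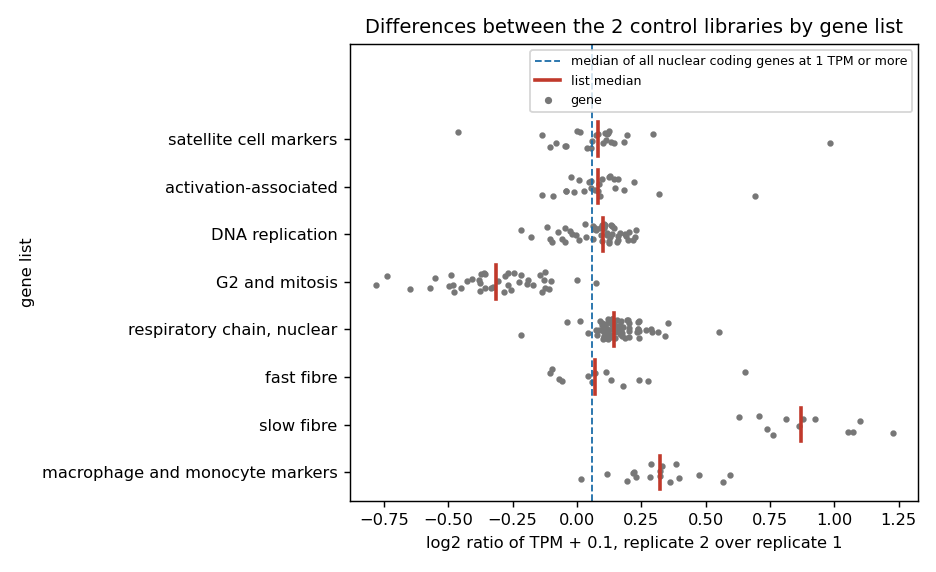
Log2 ratio of TPM plus 0.1, replicate 2 over replicate 1, of genes with a mean of at least 1 TPM (grey points) in 8 lists, with red bars for list medians and a dashed line for the median of all nuclear coding genes (0.06). The mitosis median lies at -0.32, the slow fibre median at 0.87 and the DNA replication median at 0.10.

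The remaining genes of largest difference in TPM, at a mean of at least 10 TPM, belonged to no single list, and those lower in replicate 2 differed less or the other way in scaled reads. Usp16, a deubiquitinase, stood at 21.9 and 12.9 TPM and Metap2, which removes the first methionine of new proteins, at 126 and 84.2 TPM. Scaled with TMM factors both were slightly higher in replicate 2, at 48.8 and 50.1 CPM and 231 and 237 CPM. The dynactin subunit gene Dctn6 stood at 18.2 and 11.3 TPM and 15.4 and 14.8 CPM, Exoc7, of the exocyst, at 13.1 and 9.05 TPM and 38.1 and 33.1 CPM, and Arhgap21 at 17.5 and 12.2 TPM and 95.0 and 89.6 CPM. Smim10l1, higher in replicate 2, had 34.0 and 43.4 CPM, a smaller difference than in TPM. Higher on both scales were Ccn2, a matricellular protein, with 48.8 and 79.4 TPM and 140.1 and 218 CPM, and Cox7a1, a cytochrome oxidase subunit of muscle, with 16.7 and 27.3 TPM and 7.91 and 12.3 CPM. Of the 10 genes with the largest difference towards lower TPM in replicate 2, 2 turned direction in CPM, and of the 10 towards higher TPM, 0 did.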

How the data were processed

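Total RNA of 2 Tdt Control libraries was described. Salmon 1.1.0, cutadapt 2.6 and DESeq2 1.28.1 and the builds GRCm38 and mm10 appear in the submitters' processing notes. Each deposited table lists transcripts with their estimated counts (NumReads) and TPM. Transcripts were joined by unversioned identifier to GENCODE M21 (GRCm38) and summed per gene. Of 140748 transcripts, 884 did not match, with 0.151 and 0.154% of the reads, and M21 genes with no transcript in the tables were not analysed here. Estimated counts were rounded for edgeR, which gave TMM factors and a coefficient of variation over 2 libraries. The edgeR step was first run on simulated counts of known spread. Intervals and limits for zeros cover counting error only.

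The members and the 46 gene lists (1260 entries, 1 of which, Ahsp, did not match) were chosen with earlier results of these data known. Named were Pax7, Myod1, Myf5 and Myog, the 30 most abundant nuclear coding genes, up to 8 leading members of a list with near-silent defining members, and the 10 largest differences between libraries in each direction at 10 TPM or more, without Gm, Rik and pseudogene symbols. Some other members are named after their values were seen. The fast fibre, slow fibre and developmental lists came after the data were seen. Promoter sequences are from RefSeq (GRCm38.p6). No difference between groups was tested, since there is 1 group. Some genes that the naming rule covers are not reported here.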

Additional observations from a re-analysis of the deposited data

How the results depend on the processing

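The number of detected coding genes (10284) was 11190 at a minimum of 0.5 TPM, 6926 at 5 TPM, 11617 with TPM rescaled over nuclear coding genes, and 10359 to 10450 in single libraries. The share of nuclear coding TPM in the 30 most abundant genes (13.5% over both libraries, 13.5 to 13.5% in single libraries) was 10.6% when ranked and summed by estimated reads and 13.8% without ribosomal protein genes. The ratio of the replication to the mitosis median (mean 1.47) was 1.53 with 1 length per gene and ran from 1.24 to 1.70 between the libraries. The count of nuclear coding genes that differ 2-fold (4) was 4 with a pseudocount of 1, 19 at a minimum mean of 1 TPM, 2 with TMM-scaled CPM and 2 with DESeq2 size factors, of which the cause was not tested.

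Rescaling multiplied list medians by 2.81 to 2.87, and 1 length per gene by 0.609 to 2.63 (46 lists), so levels are firm only relative to each other on 1 scale. The median log2 ratio of the mitosis list was -0.39 with rescaled TPM and -0.37 with TMM factors, and that of the slow fibre list 0.81 and 0.79. The 2 scalings of lists, and TMM-scaled CPM gene by gene, were chosen after the data were seen. No paired analysis was possible because a single group was described and the result comes from no test.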

Other observations

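Polyamine synthesis was transcribed throughout. All 9 genes were detected, with a median of 35.2 and 38.9 TPM. Besides Odc1, its inhibitor Oaz1, antizyme, had 266 and 291 TPM and spermidine synthase, Srm, 115 and 116 TPM, whereas Smox, which oxidises spermine, had 7.87 and 7.31 TPM.

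Hyaluronan synthases were low beside the hyaluronan receptor. Has1 transcripts were 3.22 and 3.84 times those of Has2, and those of Cd44 were 67.5 and 71.4 times those of Has2. Has3 stood at 0.0823 and 0.123 TPM. The imprinted genes Igf2, a growth factor, and Peg3, a zinc finger factor of muscle stem cells, had 8.51 and 7.47 TPM and 14.5 and 13.4 TPM.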
